A study of Danio rerio with 6 samples.

Results

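The collagen genes of zebrafish larvae were examined in whole-larva RNA with and without *il7r*, the interleukin 7 receptor gene. The members were all genes whose symbol has the collagen form, *col* with a type number, the letter a and a chain number, and whose probe set named no other gene. The rule found 48 genes of 19260 named genes on the array. It picked genes by symbol only, although it was set with earlier results of these data known. The brightest probe set stood for each gene. By collagen type, 8 were fibrillar chains, 11 were chains of cartilage, 11 were chains of basement membranes, and 18 belonged to other types.

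The WT group held 3 arrays of Tu larvae, the Tübingen wild-type strain, and the *il7r*-/- group held 3 arrays of larvae homozygous for a CRISPR/Cas9 mutation. Both were collected at 4 days post fertilisation (dpf). Each array was hybridised with RNA of a pool of whole larvae, and all mutant larvae descended from 1 line that carries a short deletion in an exon of *il7r*, so the genotype and this line cannot be told apart. The study asked which transcripts differ when *il7r* is lost, with the retina as its main subject; the collagens were not part of that question. In whole-larva RNA, fewer cells of a type and less RNA per cell cannot be told apart.

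Collagens are secreted proteins in which 3 chains wind into a triple helix. Fibrillar chains polymerise into the cables that carry tension in skin, bone, tendon and the sheaths around muscle, and cartilage has a fibril of its own, built on type II chains with type XI inside and type IX on the surface. Type IV chains form the sheet-like network of basement membranes, where types XV and XVIII also lie. In larvae of this age the cartilages of the jaw and gill arches are growing, and the notochord, skin and trunk muscles are already sheathed in collagen.

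Values are given on the log2 scale, where a step of 1 is a doubling, in the order WT 1, WT 2, WT 3 and then *il7r*-/- 1, 2 and 3. A change is the *il7r*-/- mean minus the WT mean. Means are over 3 arrays in each group, and the standard error (SE), the interval and the p come from limma, a linear model fitted to all probe sets of the array. A gene was called when its p, adjusted by the Benjamini-Hochberg method over all 75212 probe sets, was under 0.05 and its fold over 1.5. Different probe sets hybridise with different strength, so levels are not compared between genes.

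No collagen gene was called, and the smallest adjusted p among the 48 was 0.199, for *col2a1a*. Over all 19260 genes the same rule called 0.182% lower and 0.0519% higher, and 0 of 48 is close to that background. At an unadjusted p under 0.05, 6 collagens were higher in *il7r*-/- larvae and 0 were lower, which is 12.5% of the collagens on the higher side against 4.08% of all genes, with 8.27% of all genes on the lower side. By the methods' one-way analysis of variance, with an unadjusted p under 0.05 and a fold over 1.5, only *col2a1a* passed higher and 0 passed lower, where 0.488% and 1.98% of all genes did. The 6 genes were *col2a1a*, *col9a1b* and *col11a2* of cartilage, *col5a1* and *col5a2b* of the fibrillar class, and *col8a1a*.

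Most collagens stood a little higher without *il7r*. The change was above 0 in 38 of 48, or 79.2%, and its median was 0.12, while 44.9% of all genes had a change above 0 and their median was -0.02. In 9 collagens, 18.8%, the groups did not overlap and the *il7r*-/- arrays were the higher ones, against 8.84% of all genes. In 1 collagen, 2.08%, they did not overlap and the *il7r*-/- arrays were the lower ones, against 13.4% of all genes. The standard errors of the 48 changes ran from 0.10 to 0.35 with a median of 0.14. With 3 arrays against 3, an exact permutation test of a single gene cannot give a two-sided p below 0.1. WT 3 was the lowest array for 30 of the 48, and without it the median change was 0.03. The share without overlap was then 18.8% on the higher side against 14.8% of all genes, and 12.5% on the lower side against 22.8%.

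**Figure D1:**
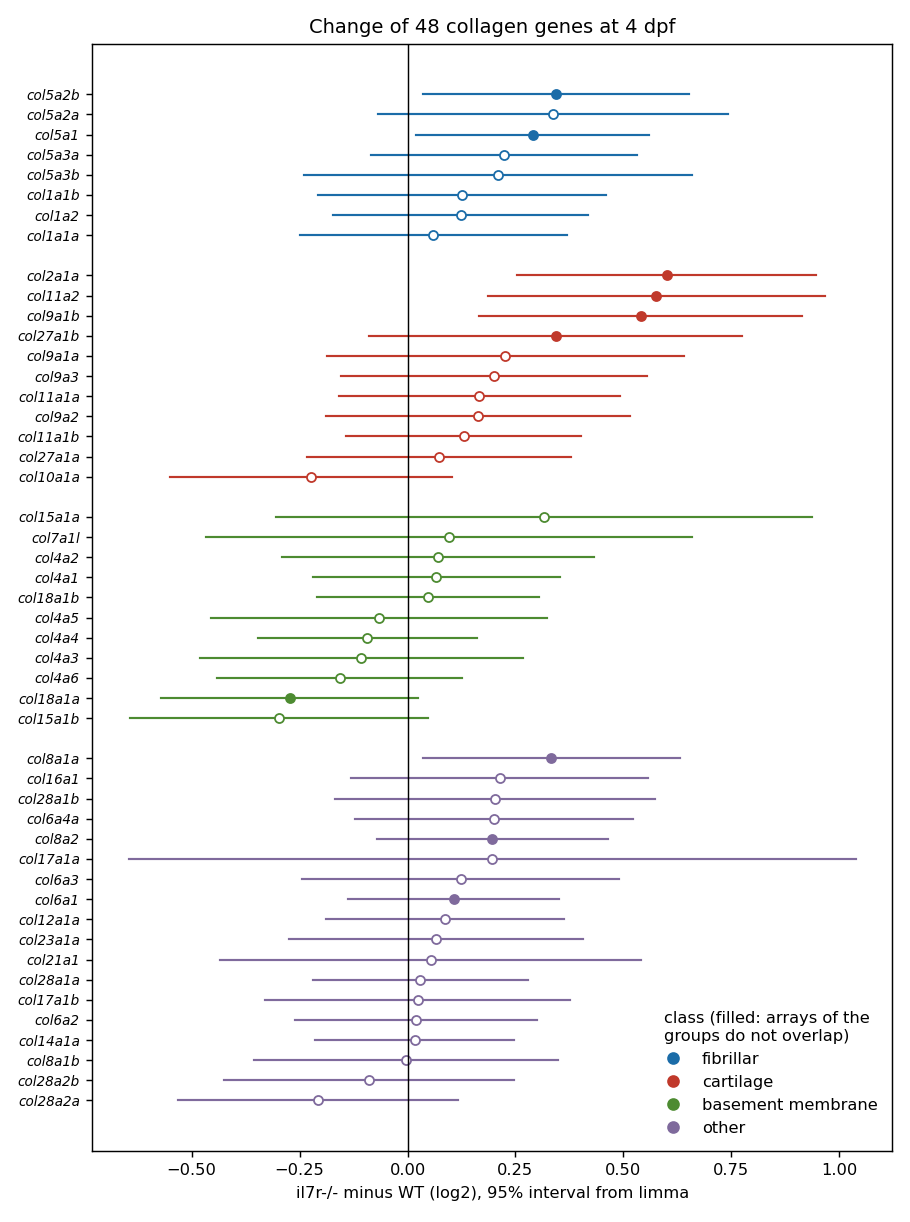
Change of each of the 48 collagen genes (*il7r*-/- minus WT, log2, x axis), grouped by class, with the 95% interval of limma. Filled points mark the 10 genes whose arrays do not overlap between the groups: 2 fibrillar, 4 cartilage and 3 other chains on the higher side and *col18a1a* on the lower side.

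The cartilage chains held the changes that were largest among the 48. The median of the 11 was 0.20, and 10 of them, 90.9%, had a change above 0, against 44.9% of all genes. In 4, 36.4%, the groups did not overlap and the *il7r*-/- arrays were higher, against 8.84% of all genes. WT 3 was the lowest array for 9 of the 11, and without it the median was 0.11. The groups then did not overlap on the higher side in 36.4%, against 14.8% of all genes. *col2a1a* encodes the type II chain, the main fibril protein of cartilage and of the notochord sheath. Its values were 7.87, 7.77 and 7.59 in WT arrays and 8.57, 8.25 and 8.21 in *il7r*-/- arrays. All *il7r*-/- arrays were above all WT arrays, with means of 7.74 ± 0.14 (SD) and 8.34 ± 0.20. The change was 0.60 (SE 0.14, 95% interval 0.25 to 0.95), or 1.52-fold, with an adjusted p of 0.199.

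*col11a2* and *col9a1b* encode a chain of type XI, which starts type II fibrils and sets their width, and a chain of type IX, which coats them. *col11a2* read 6.32, 6.36 and 6.02 in WT arrays and 7.05, 6.79 and 6.59 in *il7r*-/- arrays. The groups did not overlap, and the change was 0.58 (SE 0.16, adjusted p = 0.257). *col9a1b* read 6.84, 6.76 and 6.42 in WT arrays against 7.40, 7.15 and 7.09, again without overlap, and changed by 0.54 (SE 0.16, adjusted p = 0.264). Both changes stayed under the 1.5-fold bound, at 1.49-fold and 1.45-fold.

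The other chains of the same types had smaller changes and arrays that overlapped. The 3 type IX genes besides *col9a1b* changed by 0.23 (*col9a1a*), 0.20 (*col9a3*) and 0.16 (*col9a2*), and the adjusted p was at least 0.643 for each. The *il7r*-/- arrays of *col9a3*, 6.82, 6.54 and 6.55, straddled WT 1 at 6.66. *col11a1a* and *col11a1b*, which encode the other type XI chain, changed by 0.17 and 0.13. The change was above 0 in all 8 genes of types II, IX and XI, also without WT 3, when that of *col9a2* was 0.02, that of *col9a1a* 0.11, and those of *col11a1a* and *col11a1b* 0.08 each. The difference in size between the chains was not tested.

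Type XXVII, a fibrillar chain of cartilage and notochord, has a pair of genes in zebrafish. *col27a1b* read 4.24, 4.20 and 4.17 in WT arrays and 4.93, 4.43 and 4.28 in *il7r*-/- arrays. The groups did not overlap, but *il7r*-/- 1 stood apart from its replicates, and the change of 0.34 (SE 0.18, adjusted p = 0.512) was 0.15 without that array. Its duplicate *col27a1a* changed by 0.07. *col10a1a*, the type X chain of hypertrophic cartilage and, in fish, of bone-forming cells, was the only cartilage member with a change below 0, at -0.22 (SE 0.14, adjusted p = 0.574). Its mean of 3.86 lay in the lowest tertile of all genes (under 3.91), and with the mean of its 3 probe sets in place of the brightest the change was 0.03.

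**Figure D2:**
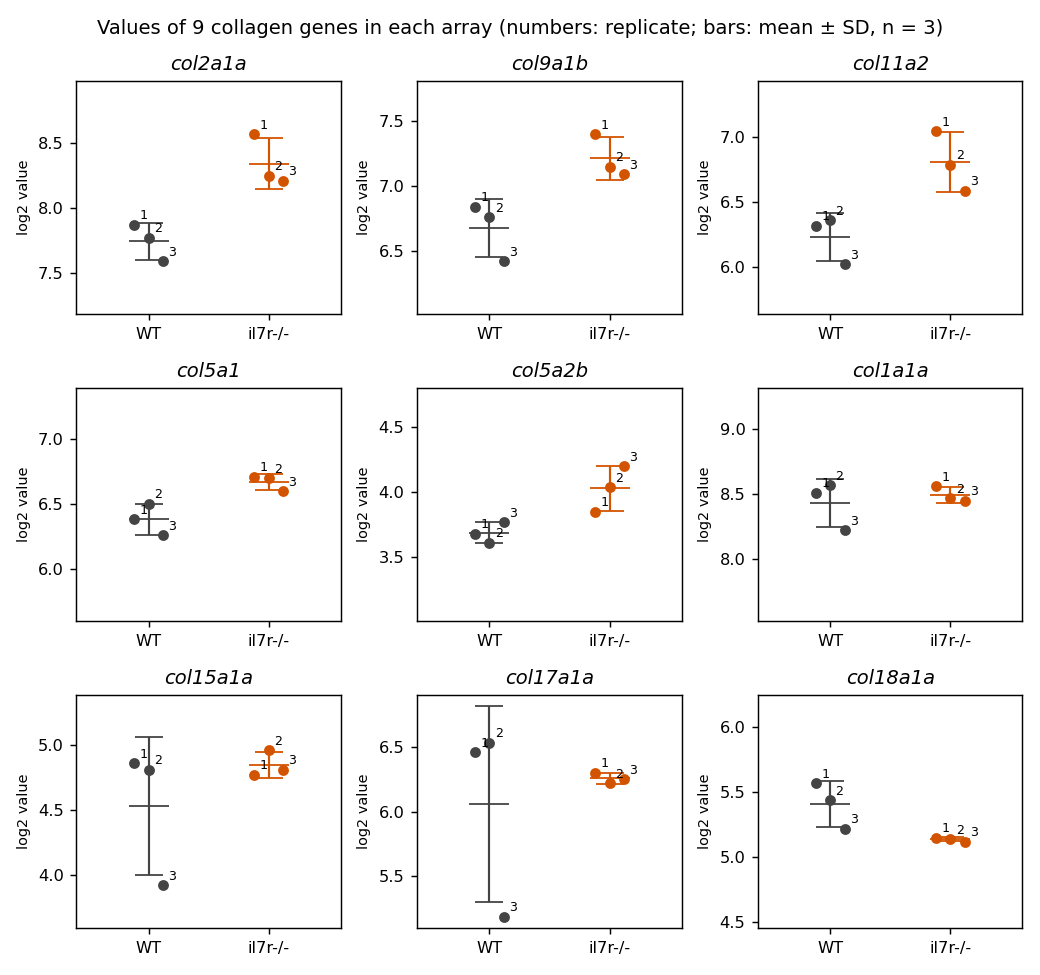
Log2 values of 9 collagen genes in each array (y axis, 1.8 log2 units high in each panel), with the replicate number beside each point and the mean ± SD of 3 arrays. *col2a1a*, *col9a1b*, *col11a2*, *col5a1* and *col5a2b* have groups that do not overlap, and in *col15a1a* and *col17a1a* WT 3 lies far below the other arrays.

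The fibrillar class, types I and V, had a change above 0 in all 8 members, with a median of 0.22. The 5 type V genes, whose chains start type I fibrils and limit their width, changed by 0.21 to 0.34. *col5a1* read 6.38, 6.50 and 6.26 in WT arrays and 6.71, 6.70 and 6.60 in *il7r*-/- arrays, and its groups did not overlap. Its change was 0.29 (SE 0.11, adjusted p = 0.387). *col5a2b* read 3.68, 3.61 and 3.77 against 3.85, 4.04 and 4.20, also without overlap, and changed by 0.34 (SE 0.13, adjusted p = 0.368), although its mean lay in the lowest tertile of all genes.

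*col5a2a*, the duplicate of *col5a2b*, had nearly the same change, 0.34, but overlapping arrays. Its values were 5.43, 5.17 and 4.90 in WT arrays and 5.69, 5.45 and 5.37 in *il7r*-/- arrays. WT 1 reached above *il7r*-/- 3, and the SE was 0.17. The other pair of type V duplicates, *col5a3a* and *col5a3b*, changed by 0.22 and 0.21. For *col5a3b* the WT arrays read 5.87, 5.81 and 5.22 and the *il7r*-/- arrays 5.88, 5.81 and 5.84, so only WT 3 stood apart, and the change was 0.00 without that array.

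The type I genes, which encode the main fibril of skin, bone and tendon, differed least within the fibrillar class with all arrays. *col1a1a* read 8.51, 8.57 and 8.22 in WT arrays and 8.56, 8.47 and 8.45 in *il7r*-/- arrays, and its change was 0.06 (SE 0.13, 95% interval -0.25 to 0.37). Without WT 3 it was -0.05, and the smallest change of the class was then that of *col5a3b*, 0.00. *col1a1b* changed by 0.13 and *col1a2* by 0.12, and the groups overlapped in each. The interval of *col1a1a* did not reach 1.5-fold in either direction, which on the log2 scale is 0.58.

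The basement membrane chains did not share a direction. Among the 11, 5 had a change above 0 and 6 below 0, with a median of -0.07. The type IV genes *col4a1* and *col4a2*, whose products form the widespread network of basement membranes and which lie next to each other on the chromosome, both changed by 0.07, and by -0.02 and -0.05 without WT 3. The other neighbouring pairs, *col4a5* with *col4a6* and *col4a3* with *col4a4*, changed by -0.07 and -0.16 and by -0.11 and -0.09. None of the 6 type IV genes had groups that did not overlap, and the smallest adjusted p among them was 0.651. Without WT 3 the change was below 0 in all 6. The groups then did not overlap in *col4a5* and *col4a6*, 33.3% on the lower side, against 22.8% of all genes.

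*col18a1a* was the only collagen whose *il7r*-/- arrays all lay below the WT arrays. It encodes a type XVIII chain of epithelial and vascular basement membranes. Its values were 5.57, 5.44 and 5.22 in WT arrays and 5.15, 5.14 and 5.12 in *il7r*-/- arrays, a change of -0.27 (SE 0.12, adjusted p = 0.455). Its duplicate *col18a1b*, in the lowest tertile, changed by 0.05.

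The duplicates of type XV, a chain of muscle and vascular basement membranes, had changes of opposite sign at the probe sets used. *col15a1b* read 4.98, 5.06 and 4.68 in WT arrays and 4.47, 4.62 and 4.74 in *il7r*-/- arrays, a change of -0.30 (SE 0.14, adjusted p = 0.483) with overlap between WT 3 and *il7r*-/- 3. *col15a1a* read 4.86, 4.81 and 3.92 against 4.77, 4.96 and 4.81, a change of 0.32 (SE 0.26). Without WT 3 the change of *col15a1a* was 0.01, and that of *col15a1b* was -0.41. A second probe set of *col15a1a*, with a mean of 4.48 against 4.69, had the same sign as *col15a1b*. It changed by -0.16, and by -0.32 without WT 3. The difference between the duplicates was not tested. *col7a1l*, listed under the type VII symbol of the anchoring fibrils beneath the epidermis, changed by 0.10 (SE 0.24) and by -0.16 without WT 3.

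Among the 18 chains of other types, 15 had a change above 0 and 3 below 0, with a median of 0.08. Type VI forms the beaded filaments around muscle fibres, and its 4 genes changed by 0.02 (*col6a2*), 0.11 (*col6a1*), 0.12 (*col6a3*) and 0.20 (*col6a4a*). *col6a1* read 6.13, 6.16 and 6.13 in WT arrays and 6.19, 6.21 and 6.34 in *il7r*-/- arrays. Its groups did not overlap, yet the change had an adjusted p of 0.730. Type VIII forms short-chain networks, and *col8a1a* read 4.52, 4.84 and 4.64 against 5.06, 5.03 and 4.91, without overlap, a change of 0.33 (SE 0.12, adjusted p = 0.368). *col8a2* changed by 0.20 without overlap, and the duplicate *col8a1b*, in the lowest tertile, by -0.003.

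*col17a1a* had the widest interval of the 48. It encodes type XVII, a membrane-spanning chain of the hemidesmosomes that fix the epidermis to its basement membrane. The values were 6.46, 6.53 and 5.19 in WT arrays and 6.30, 6.22 and 6.25 in *il7r*-/- arrays, so WT 3 lay more than 1 log2 unit below every other array. The change was 0.20 (SE 0.35) with all arrays and -0.24 without WT 3, when all *il7r*-/- arrays lay below both remaining WT arrays. Its duplicate *col17a1b*, in the lowest tertile, changed by 0.02.

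The fibril-associated chains *col12a1a*, *col14a1a* and *col16a1* changed by 0.09, 0.02 and 0.21. The arrays of *col14a1a* differed little, at 5.73, 5.71 and 5.68 in WT and 5.70, 5.74 and 5.73 in *il7r*-/-. *col21a1* changed by 0.05 and the membrane-spanning *col23a1a* by 0.07. The type XXVIII genes had both signs, with -0.21 for *col28a2a*, -0.09 for *col28a2b*, 0.03 for *col28a1a* and 0.20 for *col28a1b*. The adjusted p of these 9 genes was at least 0.602.

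A single WT array weighed on these medians. WT 3 was the lowest of the 6 arrays for 30 of 48 collagens, 62.5%, against 19.4% of all genes. By class it was lowest for 7 of 8 fibrillar, 9 of 11 cartilage, 5 of 11 basement membrane and 9 of 18 other members. Relative to each gene's mean over the 6 arrays, the median of the fibrillar members was -0.03, 0.05 and -0.24 in the WT arrays and 0.12, 0.15 and 0.06 in the *il7r*-/- arrays. For the cartilage members it was -0.02, -0.09 and -0.26 against 0.24, 0.08 and -0.06, so in both classes WT 3 was the lowest array, and in cartilage *il7r*-/- 3 lay among the WT arrays. The median over all genes stayed within 0.03 of 0 in every array.

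**Figure D3:**
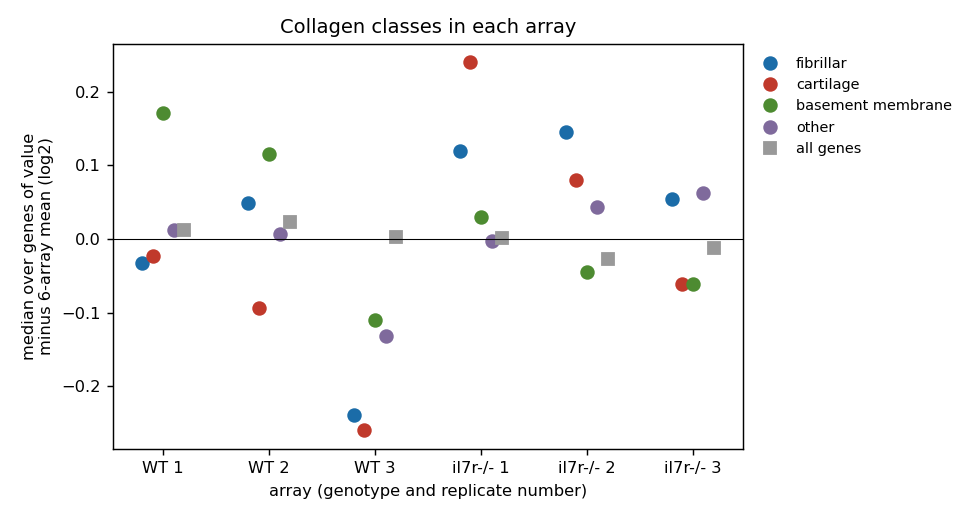
Median over the genes of each class of the value minus the gene's mean over 6 arrays (y axis, log2), in each array (x axis). The fibrillar and cartilage medians are lowest in WT 3, at -0.24 and -0.26, while the median of all genes stays near 0.

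Without WT 3, the medians were 0.11 for the fibrillar, 0.11 for the cartilage, -0.16 for the basement membrane and 0.04 for the other members, and 0.03 for all 48. The change was then above 0 in 32 of 48 collagens, against 45.5% of all genes, and in 7, 10, 2 and 13 members of the classes in the same order. Arrays without overlap were found in 9 collagens on the higher side, 18.8% against 14.8% of all genes, and in 6 on the lower side, 12.5% against 22.8%. Of these 6, 4 were basement membrane chains (*col4a5*, *col4a6*, *col15a1b* and *col18a1a*), and the others were *col17a1a* and *col28a2a*. The 3 cartilage genes with the largest changes kept 0.52 (*col2a1a*), 0.47 (*col11a2*) and 0.41 (*col9a1b*). Other arrays also moved the medians: leaving out WT 1 raised the cartilage median to 0.31, and leaving out WT 2 gave 0.03 for the basement membrane and 0.13 for the other members. No test of a difference between classes was run.

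**Figure D4:**
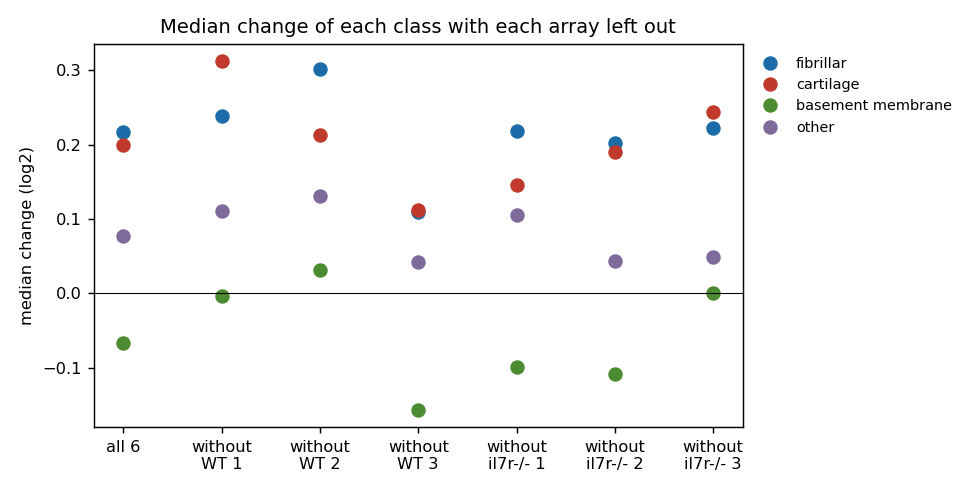
Median change of each class (y axis, log2) with all 6 arrays and with each array left out in turn (x axis). The fibrillar and cartilage medians stay above 0 in every case, down to 0.11 each without WT 3, while the basement membrane median crosses 0, from -0.16 to 0.03.

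Markers of tissues that hold collagen-making cells also moved with the arrays. Of 12 skeletal muscle markers 11 had a change above 0, with a median of 0.21, and the log2 of their summed level was 12.84, 12.94 and 12.65 in WT arrays and 13.06, 13.02 and 12.96 in *il7r*-/- arrays. Without WT 3 the median was 0.06, with 9 of 12 above 0. For 10 epidermal markers the summed level was 11.98, 12.26 and 10.37 in WT arrays and 11.44, 11.41 and 11.10 in *il7r*-/- arrays. WT 3 was again the lowest by this sum, and it was the lowest array for 6 of the 10 markers. The median change of the epidermal list was -0.17, with 7 of 10 below 0, and -0.32 without WT 3. The summed level of 6 tendon markers was also lowest in WT 3, at 7.63 against 7.88 to 8.22 in the other arrays. For 10 notochord and fin fold markers the summed level was lowest in WT 3, at 8.50 against 8.83 to 9.49, but WT 3 was the lowest array for only 4 of the 10, and their median level was lowest in WT 1. The part of these tissues in the collagen values was not tested. For contrast, the median was -1.58 for 10 photoreceptor markers and -0.97 for 11 lens markers, all of them below 0, and 2 of the photoreceptor markers were called. The paper had picked *opn1sw1*, *opn1sw2* and *opn1lw2* of the photoreceptor list from these arrays as lowered, so their sign was known beforehand. The median was -0.22 for 5 liver markers, all below 0, and -0.04 for 8 neuron markers, 4 of them below 0.

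Beside the collagens, 8 lists of 148 genes were read, of which 124 were measured. They held genes that make, export, cross-link, bind and break down collagen. They also held basement membrane partners (18 measured), cartilage matrix and regulators (19) and bone formation genes (10). None of the 124 was called. At an unadjusted p under 0.05, 11 of the 124 were higher, 8.87% against 4.08% of all genes, and 4 were lower, 3.23% against 8.27%. The groups did not overlap in 22 genes on the higher side, 17.7% against 8.84% of all genes, and in 9 on the lower side, 7.26% against 13.4%. The median change of the 124 was 0.02. Without WT 3 it was -0.03, and the groups did not overlap in 25 genes on the higher side, 20.2% against 14.8%, and in 28 on the lower side, 22.6% against 22.8%. The list of cartilage matrix and regulators had the highest median, 0.16 over 19 genes with 14 above 0, which became 0.09 with 12 above 0 without WT 3. The medians of the other 7 lists lay between -0.06 and 0.07 with all arrays. Without WT 3 the lowest was -0.19, for the 17 fibril-binding proteoglycans, with 11 below 0. Next came -0.13, for the 12 procollagen export genes, with 10 below 0. The highest of the 7 was then 0.04, for the basement membrane partners.

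Among the enzymes that modify collagen chains, *p4ha1a*, the catalytic subunit of a prolyl 4-hydroxylase that stabilises the triple helix, had the largest change. Its values were 3.82, 3.72 and 3.24 in WT arrays and 4.68, 4.64 and 4.68 in *il7r*-/- arrays. The *il7r*-/- arrays were close together and all above the WT arrays, and the change was 1.07 (SE 0.17), or 2.1-fold, and 0.90 without WT 3. The adjusted p was 0.0868, short of the threshold, and 0.0918 when the same limma p was adjusted over the 20806 probe sets that name a single gene. It was 0.0231 when limma was fitted only to these probe sets, an alternative chosen after the data were seen. The WT mean of *p4ha1a*, 3.59, lay under the bound of the lowest tertile (3.91), and its *il7r*-/- mean, 4.67, lay above it. The median of its list, 22 genes of hydroxylation and folding, was -0.005. *tmem38b*, a channel gene of the endoplasmic reticulum, changed by -0.34 (adjusted p = 0.284) without overlap of the groups. The collagen chaperone gene *serpinh1b*, named after its values were seen, changed by 0.47 (adjusted p = 0.335), also without overlap. The duplicates *p4ha1b* and *serpinh1a* changed by 0.04 and -0.04, and *serpinh1a* by -0.205 without WT 3.

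Of 12 procollagen export genes, *mia3*, whose product loads large cargo at exit sites of the endoplasmic reticulum, read 5.96, 5.64 and 5.61 in WT arrays and 6.20, 6.17 and 6.19 in *il7r*-/- arrays. All 3 *il7r*-/- arrays were above WT, and the change was 0.45 (SE 0.13, adjusted p = 0.260). *creb3l1*, a transcription factor of secretory cells, changed by -0.25 (adjusted p = 0.435), with all *il7r*-/- arrays below WT. The 16 genes of cleavage and cross-linking had a smallest adjusted p of 0.476. The lysyl oxidase family genes *loxl2b* and *loxl5b* changed by 0.35 and 0.32, with overlapping groups, and by 0.22 and 0.21 without WT 3. Of the 10 breakdown genes, the membrane metalloproteinase genes *mmp14b* and *mmp16b* changed by 0.32 and 0.12.

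The list of 17 fibril-binding proteoglycans held both signs, with 10 changes below 0 and 7 above 0. Without WT 3, 11 were below 0. The groups then did not overlap in 7 on the lower side, 41.2% against 22.8% of all genes. On the higher side they did not overlap in 1, 5.88% against 14.8%. *fmodb*, a fibromodulin gene, read 6.35, 6.31 and 5.90 in WT arrays and 5.58, 5.71 and 5.60 in *il7r*-/- arrays, all below, and changed by -0.56 (SE 0.15, adjusted p = 0.239). *epyc*, the gene of the cartilage proteoglycan epiphycan, read 6.65, 6.51 and 6.15 against 7.21, 6.76 and 6.87, all above, and changed by 0.51 (adjusted p = 0.354). In the cartilage list *matn1*, the gene of matrilin 1, read 5.31, 5.40 and 5.38 in WT arrays and 5.88, 5.71 and 5.60 in *il7r*-/- arrays, and changed by 0.37 (SE 0.12, adjusted p = 0.300) without overlap. *ucmaa*, which encodes a secreted protein of cartilage, changed by -0.40 (adjusted p = 0.358), also without overlap, and its mean lay in the lowest tertile. Named after the values were seen, *sox9a* and *sox9b*, the cartilage transcription factor genes, changed by 0.16 (adjusted p = 0.603) and 0.22 (adjusted p = 0.533). The groups of *sox9b* did not overlap, while *il7r*-/- 3 of *sox9a* equalled WT 1 at 6.79. *sox5* and *sox6* of the same list changed by -0.08 and 0.02.

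In the bone list *runx2b*, a transcription factor gene of bone-forming cells, changed by 0.33 (adjusted p = 0.350), and its mean lay in the lowest tertile. *ifitm5*, a gene of bone-forming cells, also changed by 0.33 (adjusted p = 0.534), with overlapping groups. Of the 10 bone genes, 6 had a change above 0 and 4 below 0, with a median of 0.07. Of 18 basement membrane partners, 11 had a change above 0 and 7 below 0, with a median of 0.05. The laminin gene *lama4* changed by 0.27 and the hemicentin gene *hmcn2* by 0.43, with an adjusted p of at least 0.384. Without WT 3 the change of *hmcn2* was 0.24.

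**Figure D5:**
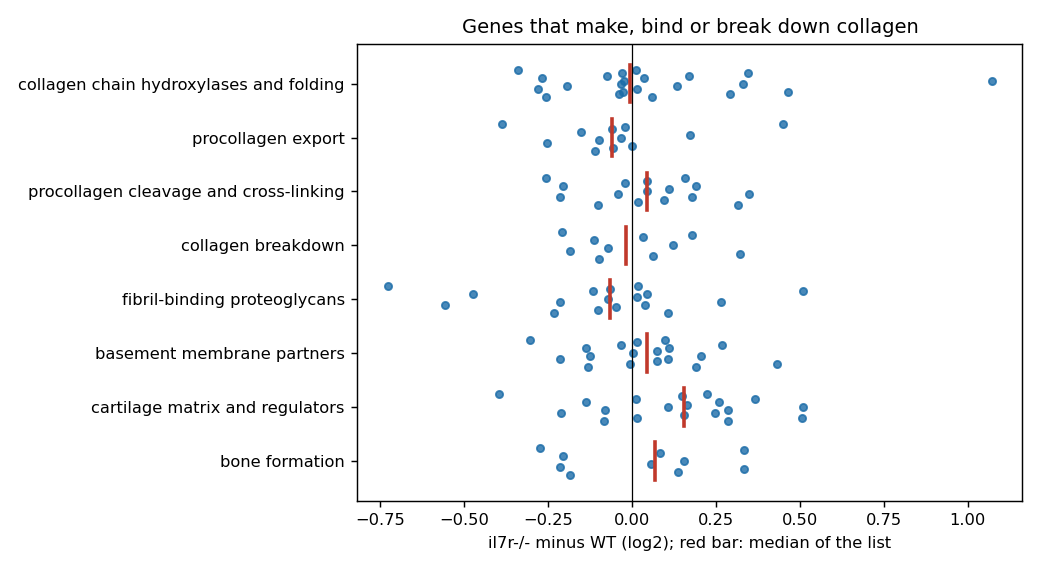
Change of each of 124 genes (x axis, *il7r*-/- minus WT, log2) in 8 lists (y axis), with the median of each list as a red bar. The lists cover genes that make, bind or break down collagen, basement membrane partners, cartilage matrix and regulators, and bone formation. The point at 1.07 is *p4ha1a*, and the medians of the lists lie between -0.06 and 0.16.

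The *il7r* probe set read 1.40, 1.80 and 1.76 in WT arrays and 1.42, 1.64 and 1.71 in *il7r*-/- arrays. The change of -0.06 (adjusted p = 0.907) lay at a level in the lowest tertile of all genes, and where the probes lie relative to the deletion is not given in the sources used here, so it is no check of the genotype.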

How the data were processed

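Zebrafish Gene 1.0 ST arrays of 3 WT and 3 *il7r*-/- pools were used. The authors summarised the arrays by RMA in Expression Console. The deposited values are treated as log2 intensities, a base read from their range and not given in the sources used here. The array medians lie between 3.41 and 3.44, and 0 sample columns were unused. Replicates are batches of larvae. Over all probe sets, same-numbered arrays did not deviate together (r between -0.01 and 0.02), so no pairing was assumed. In some sets replicate 3 was the lowest array of both groups. This held for the median of all 48 collagens (-0.21 in WT, 0.02 in *il7r*-/-). By class it held for the fibrillar (-0.24 and 0.06), cartilage (-0.26 and -0.06) and basement membrane medians (-0.11 and -0.06). The summed skeletal muscle, epidermal, tendon, photoreceptor and lens markers had the same order. It did not hold for the median of other types (-0.13 and 0.06) or the summed notochord and fin fold markers. A shift shared by same-numbered arrays in these sets was not tested.

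Genes came from the platform annotation. The brightest probe set by mean stood for each gene, which affected 4 collagens. All 48 matched RefSeq by Entrez identifier. Probe sets naming several genes were not used. R 4.3.3 and limma 3.58.1 (lmFit, eBayes) were used, and the fit was tested on simulated data. With 3 arrays per group, their number limits the precision.

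Members, classes and lists were chosen with earlier results of these data known. Named genes were those called, and in each class the 4 of highest mean and the 4 of largest change above the lowest tertile. Their duplicates and chromosome neighbours and 2 genes of smallest p per list were added. The remaining collagens are named to complete the 48. Outside this rule, *serpinh1b*, *serpinh1a*, *p4ha1b*, *sox5*, *sox6*, *sox9a*, *sox9b* and *kera* are named after their values were seen. Alternatives covered the test, adjustment, variance prior, normalization, centring, array weights, dim probe sets, probe set choice, the replicate block and each array left out.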

Additional observations from a re-analysis of the deposited data

How the results depend on the processing

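No collagen was called under any alternative that adjusted the p. With unadjusted p values and the fold bound, 1 collagen, *col2a1a*, was called higher by limma and 1 by the methods' analysis of variance, and its adjusted p ranged from 0.0843 to 0.399. In the lists, 2 genes passed by limma without adjustment, *p4ha1a* on the higher and *kera* on the lower side. *kera*, named after its values were seen, is in the list of fibril-binding proteoglycans. It changed by -0.73 with overlapping groups, and by -1.06 without WT 3. By the analysis of variance without adjustment 1 gene (*p4ha1a*) passed. In the fit without probe sets of several or no genes, an alternative added once the data had been seen, 1 gene (*p4ha1a*) passed. With the replicate block, 0 collagens were called, and the block changed no call. The class medians of 0.22, 0.20, -0.07 and 0.08 could not change with the block, since each replicate number occurs once in each group.

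Over 12 alternatives the fibrillar median ranged from 0.11 to 0.30, the cartilage median from 0.11 to 0.31, the basement membrane median from -0.16 to 0.03 and the other median from 0.04 to 0.13. Collagens higher in every array numbered 9 to 15 with each array left out, the most without *il7r*-/- 3. Those lower in every array numbered 1 to 6, the most without WT 3, or 2 when a gene's probe sets were averaged. Smaller groups overlap less often. Without WT 3, the share of all genes without overlap was 14.8% higher and 22.8% lower, against 8.84% and 13.4% with all arrays. For the other arrays left out, the share of all genes was not counted, so the count of 15 has no background beside it.

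The sign turned in 13 of 48 collagens under at least 1 of 19 alternatives, and 12 of these changes were below 0.2 in size. Alternatives that changed only the test, the adjustment, the variance prior, the block or the probe sets fitted leave each change as it was. They could not turn a sign. Array weights gave -0.028 for *col17a1b*, -0.032 for *col21a1*, -0.017 for *col7a1l* and 0.037 for *col8a1b*, and averaged probe sets gave 0.033 for *col10a1a*. With each array left out, the ranges were -0.052 to 0.088 for *col6a2*, -0.023 to 0.18 for *col23a1a*, -0.19 to 0.032 for *col4a3*, -0.20 to 0.032 for *col4a5*, -0.24 to 0.43 for *col17a1a*, -0.11 to 0.14 for *col17a1b*, -0.047 to 0.13 for *col1a1a*, -0.16 to 0.20 for *col21a1*, -0.022 to 0.13 for *col4a1*, -0.05 to 0.18 for *col4a2*, -0.16 to 0.27 for *col7a1l* and -0.11 to 0.075 for *col8a1b*. The cause was not tested. Signal over background was not used here, and 8 collagens lay in the lowest tertile of all genes.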
